A study of Homo sapiens with 12 samples.

Results

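The transcripts described here are 44 genes of the ATF4 response: its regulators, its stress effectors, the enzymes that make amino acids and one-carbon units, amino acid transporters, a tRNA exporter and cytosolic tRNA synthetases. The genes form a list of symbols, taken whole, with no threshold on a measured value. All 44 were found among the 20433 genes listed, and all 44 passed the filter on low counts that left 15592 genes for testing. They comprised 6 regulators, 4 stress effectors, 13 synthesis enzymes, 8 transporters, 1 tRNA exporter and 12 tRNA synthetases.

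RNA was sequenced from H1975, an established human non-small cell lung cancer line, in 12 libraries, 3 for each of 4 groups. All 4 groups carried a hairpin that doxycycline switches on, and all 4 received doxycycline at 0.5 µg/ml for 2 days. The controls carried a control hairpin and a genotype labelled wild type, and the sh-A, sh-B and sh-C groups were each labelled as knockdown of KAT5, which encodes the histone acetyltransferase TIP60. Libraries keep their label numbers: control and sh-C have 1 to 3, whereas sh-A and sh-B have 3 to 5. Only sh-B and sh-C are described as TIP60 hairpins in the study's design text, and the labels do not say whether a group was a single clone or a pool of cells. Cells without doxycycline or without a hairpin were not analysed here. Nothing in the labels says whether a group's libraries are separate cultures. The p-values therefore measure the spread between these libraries, which may be technical.

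ATF4 is a transcription factor whose protein is made mainly when the initiation factor eIF2 is phosphorylated by a kinase that senses amino acid shortage, unfolded protein, haem shortage or double-stranded RNA. It binds DNA as a dimer with C/EBP family members and is known to raise genes for serine, glycine, asparagine and proline synthesis, for amino acid import and for charging tRNAs. Because ATF4 is controlled largely at translation, its transcript level and its activity need not move together, and only transcripts were measured here. In lung cancer cells, the serine and glycine enzymes and the cystine importer SLC7A11 are among its best-known targets.

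Levels are given as counts divided by the TMM-scaled size of each library (CPM), differences as log2 fold changes with standard errors, and genes count as called where edgeR's p, adjusted over all 15592 genes, was below 0.05. With sh-B, 24 of the 44 genes were higher than in the control and 1 was lower, where 15.0% of all genes tested were called higher and 15.0% lower. With sh-A, 10 were higher and 3 lower, against 14.4% and 12.3% of all genes. With sh-C, 10 were higher and 1 lower, against 9.79% and 7.16%. The median log2 fold change over the 44 genes was 0.41 with sh-B, 0.18 with sh-A and 0.26 with sh-C, where the median over all genes was 0.0, 0.01 and 0.0. The sh-C count was the least steady: it fell to 5, 4 and 4 without control 1, 2 or 3 and to 3 and 4 without sh-C 2 or 3. Over all genes, those called higher with sh-C also fell, from 1527 to 816, 568, 617, 474 and 541 in the same fits. The sh-A count of lower genes went from 3 to 6 without sh-A 3, and over all genes from 1919 to 2303. These 3 comparisons share their control libraries, so their counts are not independent of each other.

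**Figure D1:**
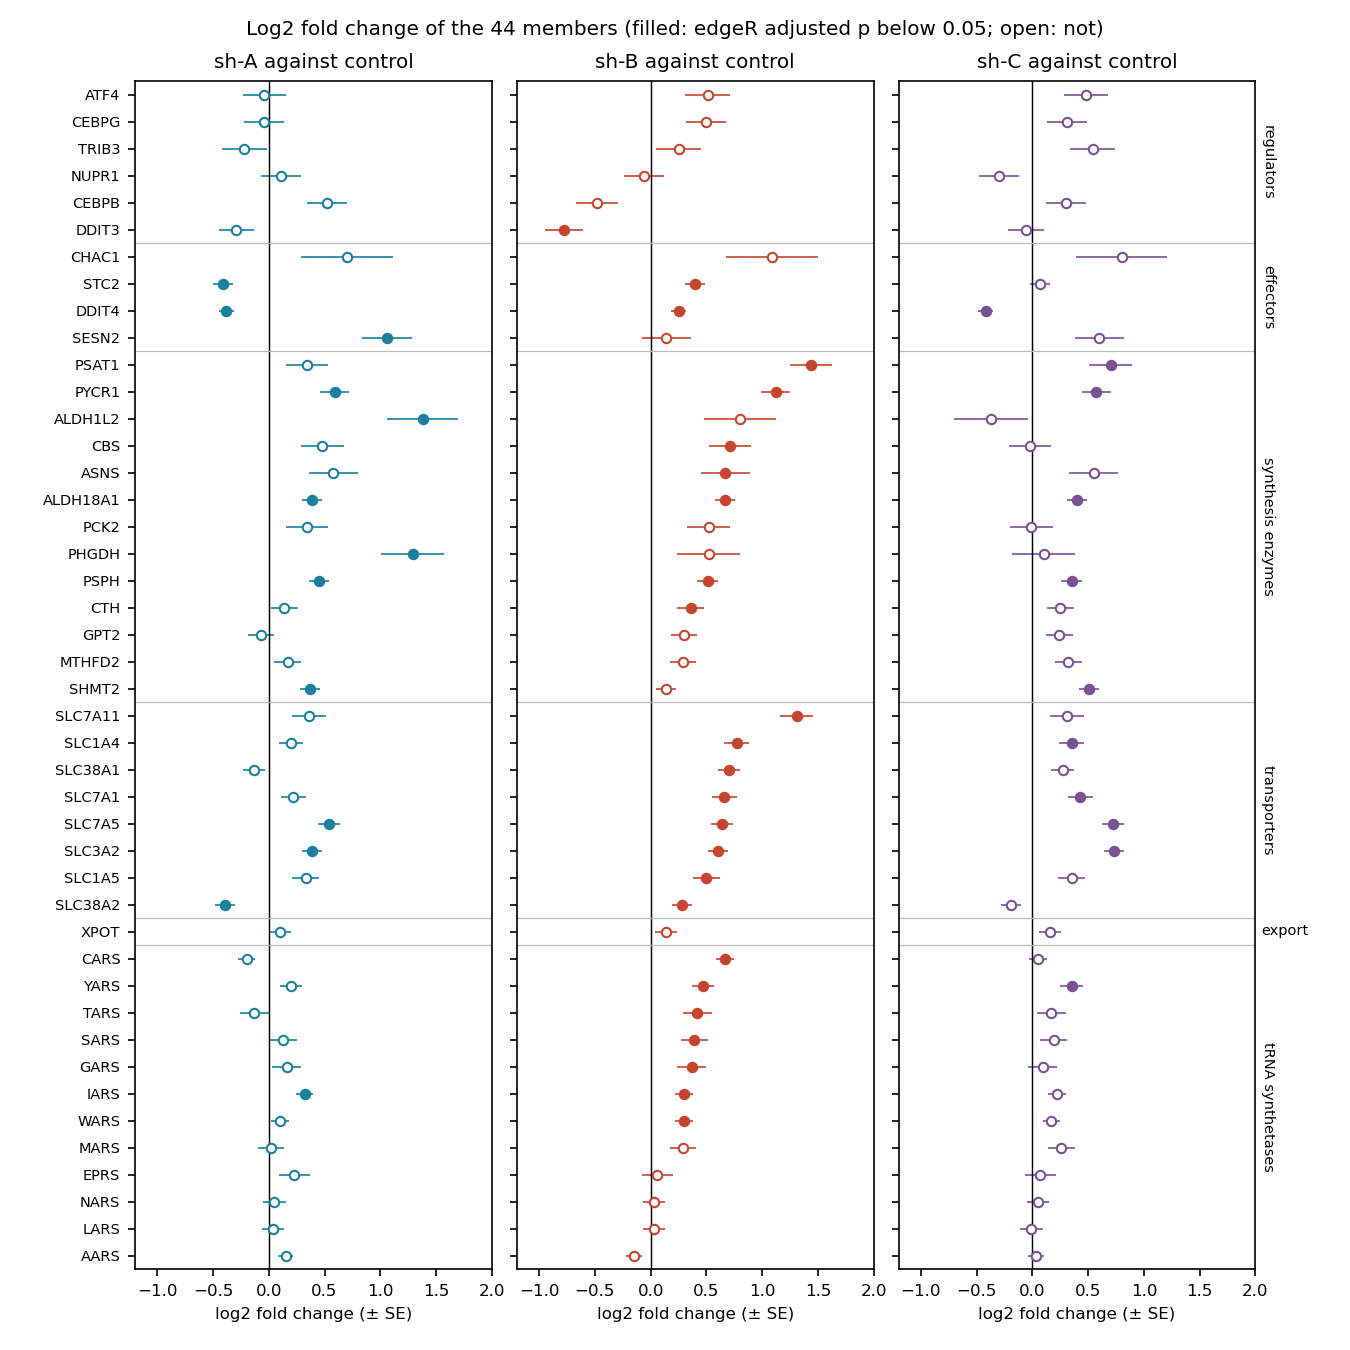
Log2 fold change against control (x axis, with standard errors) of each of the 44 genes (rows, grouped by role) for sh-A, sh-B and sh-C in 3 panels. Filled points were called at an adjusted p below 0.05. The 8 transporters are all filled with sh-B, and the regulators are open in all 3 panels apart from DDIT3 with sh-B.

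Library totals ran from 15631504 to 28073366 expected counts. KAT5 averaged 28.9 CPM in the control and 19.4, 13.6 and 7.92 CPM with sh-A, sh-B and sh-C, a called fall in each, so the residual KAT5 transcript was highest with sh-A and lowest with sh-C. Epithelial markers summed to 5800 to 6008 CPM in the control, 3585 to 3924 with sh-A, 5184 to 5295 with sh-B and 6141 to 6381 with sh-C. The sh-C sum was raised by KRT7, at a mean of 1394 CPM in the control and 2223 with sh-C. Of the 8 markers, 0 had a positive and 8 a negative log2 fold change with sh-A, 2 and 6 with sh-B, and 3 and 5 with sh-C. The medians were -0.74, -0.15 and -0.18. None of the 8 epithelial markers was at 0 in any library. Fibroblast markers summed to 14.2 to 25.3 CPM, nearly all COL1A1, endothelial markers to 1.41 to 14.8 CPM, and leukocyte markers to 69.0 to 186 CPM, mainly CD68. A set of 8 transcripts seen almost only with sh-A, among them IRS4, LIN28B and HOXD13, summed to 378 CPM in sh-A 3, 59.5 in sh-A 4 and 60.3 in sh-A 5, and to at most 0.178 in the other libraries. The part of the low epithelial markers and of these transcripts in the sh-A results was not tested.

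The libraries numbered 3 of sh-A and sh-B stood apart for these genes. The same counts were not made over all genes, so this is not shown to be particular to the 44. In sh-A 3, 35 of the 44 genes were above both other sh-A libraries, with a median ratio to their mean of 1.22, from 0.61 for TRIB3 to 2.72 for ALDH1L2. In sh-B 3, 30 of 44 were above both other sh-B libraries, with a median ratio of 1.12 and a highest ratio of 2.15 for CHAC1. In sh-C 1, 15 genes were above and 23 below both other sh-C libraries, and TRIB3 was lowest at a ratio of 0.66. Excluding these 3 libraries (sh-A 3, sh-B 3, sh-C 1) at the same time, a choice made after their values were seen, gave 12 higher and 9 lower genes with sh-A, 33 and 3 with sh-B, and 27 and 4 with sh-C. That fit tested 15723 genes. Over all of them 3743 were higher and 3488 lower with sh-A, 3708 and 3680 with sh-B, and 3536 and 3189 with sh-C. In the main fit of 15592 genes these counts were 2248 and 1919, 2344 and 2344, and 1527 and 1116, so calls rose over all genes too.

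**Figure D2:**
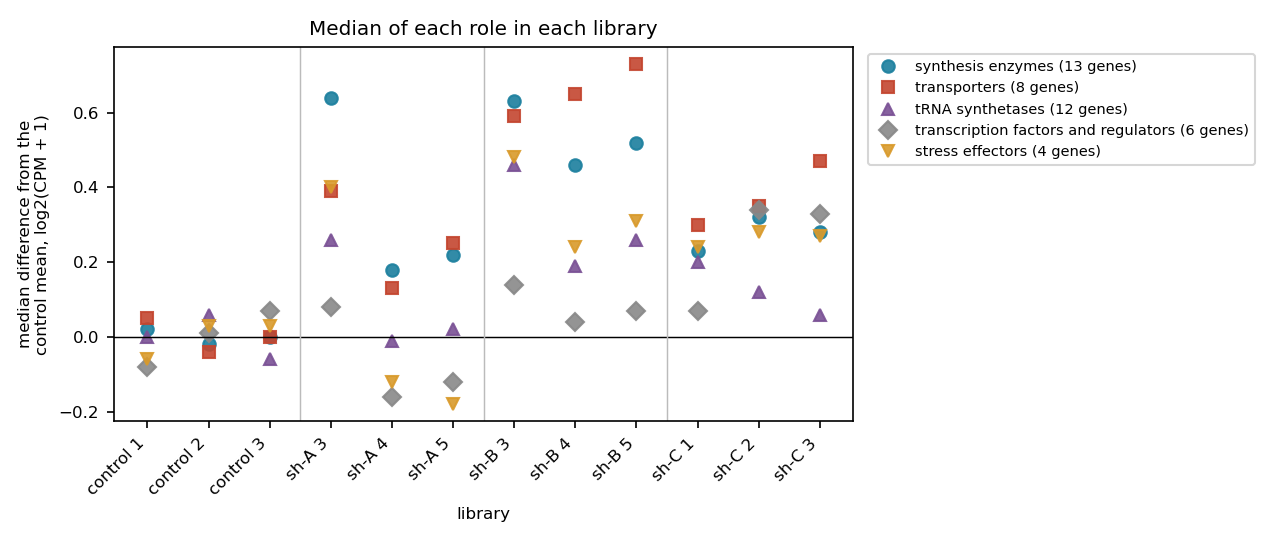
Median difference from the control mean (y axis, log2(CPM + 1)) over the genes of each role in each of the 12 libraries (x axis). For the synthesis enzymes the 3 sh-A libraries sit at 0.64, 0.18 and 0.22, while the transporters lie between 0.59 and 0.73 in the 3 sh-B libraries.

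Per transcript length, in the authors' FPKM, ATF4 was the most abundant of the 44 genes in the control, at 195 ± 6.23 (SD, n = 3). GARS followed at 176 ± 10.5 and TARS at 157 ± 5.49, so that charging enzymes for glycine and threonine lay just under the regulator. The neighbours EPRS (106 ± 10.5), SLC7A5 (103 ± 6.08) and IARS (96.6 ± 3.12) lay within each other's spread. Of the enzymes, MTHFD2 (113 ± 7.56) and SHMT2 (94 ± 5.86), of mitochondrial one-carbon metabolism, were the most abundant. The lowest 4 were SLC1A4 (2.97 ± 0.351), SESN2 (2.83 ± 0.145), ALDH1L2 (1.30 ± 0.121) and CHAC1 (1.05 ± 0.0889), and SLC1A4 and SESN2 did not differ beyond their spread. SLC7A11 was also low, at 3.96 ± 0.219 FPKM.

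**Figure D3:**
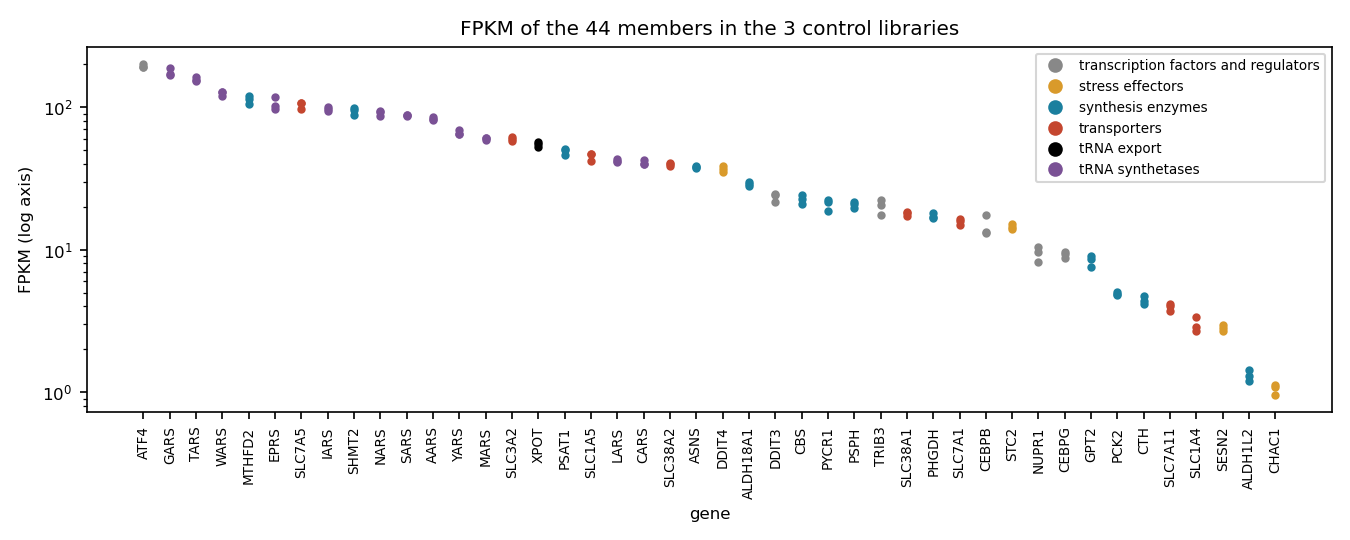
FPKM (log y axis) of the 44 genes in the 3 control libraries, ordered by their mean and coloured by role. ATF4 stands at the upper end at 195 FPKM and CHAC1 at the lower end at 1.05 FPKM, with 10 of the 12 synthetases among the 14 highest.

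The sequence that ATF4 and C/EBP dimers bind has the core TGATGNAA, where N is any base. It was searched on both strands of RefSeq promoter windows, 250 bases before to 50 after each annotated start on GRCh38.p14. It was found in 3.62% of all 35116 windows, and in 27.3% of the 55 windows that belong to these genes. By gene, 15 of the 35 members with a window held it (42.9%), against 4.46% of all 27305 genes in the table. The matched genes were 7 of 10 synthetases, 5 of 7 transporters, 1 of 8 enzymes (ASNS), 1 of 5 regulators (CEBPG) and 1 of 4 effectors (CHAC1). YARS, GPT2, LARS, ALDH1L2, NUPR1, SHMT2, SLC7A11, PYCR1 and PSPH had no window in the table. A match of letters is a description and not a bound site.

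Below are the 10 matched genes that rose with sh-B. They were picked by both the match and the call, so they cannot show whether match and call go together. The matched genes AARS, CEBPG, CHAC1, MARS and NARS were not called with sh-B in the main fit and are not shown. Each stretch has 30 bases on the gene's strand, 5′ to 3′, with the match in capitals. In ASNS, SLC1A5, SLC38A1 and SLC7A1 it reads on the gene's own strand, and in the others as its reverse complement.
ASNS: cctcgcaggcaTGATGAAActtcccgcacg
SLC1A5: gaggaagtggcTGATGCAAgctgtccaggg
SLC38A1: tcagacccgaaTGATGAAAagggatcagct
SLC7A1: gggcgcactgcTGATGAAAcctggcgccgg
SLC1A4: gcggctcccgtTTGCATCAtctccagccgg
SLC3A2: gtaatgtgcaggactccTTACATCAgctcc
CARS: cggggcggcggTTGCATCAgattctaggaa
GARS: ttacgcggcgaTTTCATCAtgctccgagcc
IARS: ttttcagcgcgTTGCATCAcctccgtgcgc
TARS: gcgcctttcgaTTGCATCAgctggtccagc

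On GRCh38.p14 the ASNS stretch was chr7:97872458-97872487 on the minus strand, SLC1A5 chr19:46784893-46784922 (minus), SLC38A1 chr12:46266502-46266531 (minus) and SLC7A1 chr13:29595663-29595692 (minus). The SLC1A4 stretch was chr2:64989381-64989410 on the plus strand, SLC3A2 chr11:62881719-62881748 (plus) and CARS chr11:3057407-3057436 (minus). The GARS stretch was chr7:30594834-30594863 (plus), IARS chr9:92293692-92293721 (minus) and TARS chr5:33440956-33440985 (plus). All but that of SLC38A1 overlapped an untranslated part of an exon in some transcript of the gene in the GENCODE annotation of that build. Of the 15 matched genes, 10 were higher with sh-B and their median log2 fold change was 0.50, while of the 20 genes with a window and no match, 10 were higher, 1 was lower and the median was 0.33. With sh-A the median was 0.16 in both sets, and with sh-C it was 0.27 with a match and 0.18 without. No test was made between the sets.

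In the main fit of all 12 libraries, no regulator was called higher than in the control. In that fit edgeR called none of the 6 with sh-A or sh-C, where 1 and 2 had an unadjusted p under 0.05 and DESeq2 called 1 and 1. With sh-B, edgeR called DDIT3, lower, and none higher, where ATF4 and CEBPG had an unadjusted p under 0.05 and were called higher by DESeq2 (adjusted p = 0.034 and 0.028). ATF4 itself measured 285, 271 and 267 CPM in the controls, 375, 213 and 211 in sh-A 3, 4 and 5, 473, 337 and 361 in sh-B 3, 4 and 5, and 401, 383 and 363 in sh-C 1, 2 and 3. Every sh-B and sh-C library lay above every control, whereas the sh-A libraries lay on both sides. The authors' deposited table gives ATF4 log2 ratios of 0.51 with sh-B, 0.48 with sh-C and -0.04 with sh-A. The fitted log2 fold change was 0.51 ± 0.20 (adjusted p = 0.068) with sh-B, 0.48 ± 0.20 (0.11) with sh-C and -0.04 ± 0.19 (0.90) with sh-A. In edgeR fits of the 2 compared groups alone, ATF4 was called higher with sh-B (adjusted p at most 0.034) and with sh-C (at most 0.0047). Without sh-A 3, ATF4 was called lower with sh-A, at -0.37 (adjusted p = 0.035). When those 3 libraries (numbers 3, 3 and 1) were all left out, it was called in each comparison, at -0.37 (0.00017), 0.35 (0.00022) and 0.45 (5e-05) for sh-A, sh-B and sh-C.

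CEBPG, a C/EBP family partner of ATF4, had a similar profile by library. It measured 33.0, 36.4 and 34.3 CPM in the controls, 45.7, 27.0 and 28.2 with sh-A, 58.6, 43.1 and 44.5 with sh-B, and 44.4, 42.8 and 41.7 with sh-C. As for ATF4, all sh-B and sh-C libraries exceeded the controls, and sh-A 3 stood apart from the other sh-A libraries. No difference from the control was called in the main fit, with values of 0.50 ± 0.18 (adjusted p = 0.053) for sh-B and 0.31 ± 0.18 (0.24) for sh-C. In edgeR fits of the 2 compared groups alone, CEBPG was called higher with sh-B (adjusted p at most 0.028) and with sh-C (at most 0.033).

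CEBPB, another C/EBP family member, and DDIT3, which encodes CHOP, a pro-apoptotic factor of the stress response, went the other way with sh-B. CEBPB measured 28.1, 27.9 and 36.2 CPM in the controls, 31.6, 47.7 and 52.6 with sh-A, 23.1, 22.5 and 20.7 with sh-B, and 30.1, 40.2 and 43.0 with sh-C. The sh-B libraries were all below the controls but the difference, -0.48 ± 0.19, was not called (adjusted p = 0.073). In the edgeR fit of sh-B and control alone, CEBPB was called lower (adjusted p at most 0.049). It was lower with sh-B than with sh-C, by -0.77 ± 0.19 (adjusted p = 0.0086), and higher with sh-A than with sh-B, by 0.99 ± 0.19 (0.00085). DDIT3 measured 20.5, 23.6 and 22.4 CPM in the controls, 20.5, 18.2 and 15.7 with sh-A, 16.7, 9.59 and 12.6 with sh-B, and 21.6, 22.2 and 19.9 with sh-C. It fell by 0.78 ± 0.17 with sh-B (adjusted p = 0.0044), and the sh-B libraries did not overlap the controls. The sh-B level was also below that of sh-C, by -0.72 ± 0.17 (adjusted p = 0.0074). Sh-A exceeded sh-B by 0.49 ± 0.17 (adjusted p = 0.031), a call that was lost without sh-A 3 (0.39, 0.081), sh-A 4 (0.48, 0.065), sh-B 4 (0.31, 0.12) or sh-B 5 (0.46, 0.079).

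TRIB3, a pseudokinase that is itself an ATF4 target and damps the response, ranged from 29.9 CPM in sh-A 3 to 84.0 in sh-C 2. It was not called against control, at -0.22 ± 0.20 with sh-A, 0.25 ± 0.20 with sh-B and 0.54 ± 0.20 with sh-C (adjusted p = 0.46, 0.37 and 0.084). In the edgeR fit of sh-C and control alone, TRIB3 was called higher (adjusted p at most 0.046). NUPR1, a small stress-induced chromatin protein, ranged from 5.44 to 9.65 CPM and was not called in any of the 6 comparisons.

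**Figure D4:**
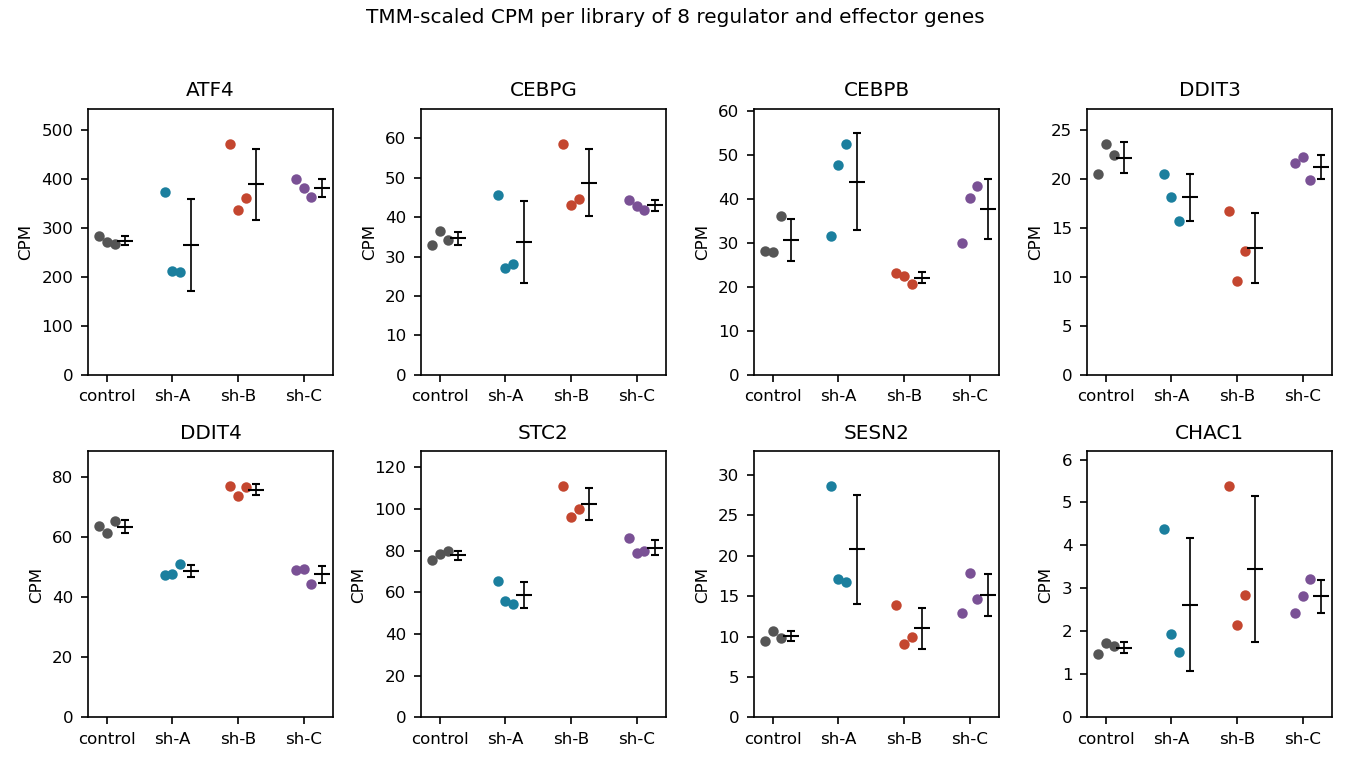
CPM (y axis) of 8 regulator and effector genes in each library (points), with group mean and SD (bars, n = 3). For ATF4, CEBPG, SESN2 and CHAC1 1 sh-A point lies above the other sh-A points, and for DDIT4 the sh-B points, at 73.8 to 77.0, lie above the control while those of sh-A and sh-C lie below it.

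The stress effectors differed in direction from gene to gene and from hairpin to hairpin. DDIT4, also called REDD1, an inhibitor of mTORC1, measured 63.9, 61.4 and 65.4 CPM in the controls, 47.3, 47.9 and 51.1 with sh-A, 77.0, 73.8 and 76.8 with sh-B, and 49.0, 49.3 and 44.5 with sh-C. No group overlapped the controls. It fell by 0.38 ± 0.07 with sh-A (adjusted p = 0.002) and by 0.42 ± 0.07 with sh-C (0.0043), and rose by 0.25 ± 0.07 with sh-B (0.016). The rise was no longer called without control 1 (0.26, adjusted p = 0.05 after rounding), control 2 (0.22, 0.067) or sh-B 5 (0.24, 0.055). Directly compared, sh-B exceeded sh-C by 0.67 ± 0.07 (adjusted p = 4.5e-05).

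STC2, a secreted glycoprotein, measured 75.5, 78.2 and 79.7 CPM in the controls, 65.7, 55.8 and 54.3 with sh-A, 111, 96.2 and 100 with sh-B, and 85.9, 78.9 and 79.8 with sh-C. It fell by 0.41 ± 0.09 with sh-A (adjusted p = 0.005) and rose by 0.40 ± 0.09 with sh-B (0.005), with no overlap with the controls in either, while sh-C differed by 0.07 ± 0.09 (0.65). SESN2, a leucine sensor that restrains mTORC1, rose with sh-A, by 1.06 ± 0.22 (adjusted p = 0.0039). Its levels were 9.5, 10.7 and 9.88 CPM in the controls, 28.6, 17.1 and 16.7 with sh-A, 13.9, 9.11 and 10.0 with sh-B, and 12.9, 17.9 and 14.6 with sh-C. Sh-A exceeded sh-B by 0.92 ± 0.22 (adjusted p = 0.0038) but not, at the threshold used, sh-C (0.46 ± 0.21, 0.11). Against control, every sh-C library was higher, without a call in the main fit (0.60 ± 0.22, 0.079), and sh-B was at 0.14 ± 0.22 (0.69). DESeq2 and the edgeR fit of sh-C and control alone called SESN2 higher with sh-C (adjusted p at most 0.049).

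CHAC1, which degrades glutathione, was the least abundant member in the control and had the widest standard errors against it. It measured 1.48, 1.73 and 1.65 CPM in the controls, 4.39, 1.94 and 1.53 with sh-A, 5.38, 2.15 and 2.85 with sh-B, and 2.44, 2.82 and 3.21 with sh-C. All sh-B and sh-C libraries exceeded the controls. The differences of 1.09 ± 0.41 with sh-B (adjusted p = 0.063) and 0.80 ± 0.41 with sh-C (0.20) were not called in the main fit. DESeq2 and edgeR fits of sh-B and control alone or without sh-B 4 called CHAC1 higher with sh-B (adjusted p at most 0.04). The edgeR fit of sh-C and control alone called it higher with sh-C (at most 0.022).

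Of all genes tested, 14.4%, 15.0% and 9.79% were called higher with sh-A, sh-B and sh-C. Of the 13 synthesis enzymes, 6 rose with sh-A, 7 with sh-B and 5 with sh-C, with median log2 fold changes of 0.39, 0.52 and 0.32. Excluding the same 3 libraries (numbers 3, 3 and 1) gave medians of 0.16, 0.50 and 0.30. By edgeR 0 were lower in each, and 0 at an unadjusted p under 0.05 or by DESeq2. PSPH (the last step of serine synthesis), ALDH18A1 and PYCR1 (the first and last steps of proline synthesis) rose with all 3 hairpins. The rest of the list split by hairpin.

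The first 2 steps of serine synthesis differed between hairpins. PHGDH, the first enzyme, measured 33.9, 33.6 and 35.8 CPM in the controls, 141, 57.4 and 54.2 with sh-A, 51.0, 47.7 and 49.8 with sh-B, and 35.2, 39.8 and 35.7 with sh-C. It rose by 1.29 ± 0.28 with sh-A (adjusted p = 0.0053), a value that was 0.69 (4.7e-05) without sh-A 3, and the 3 sh-B libraries lay above the controls without a call (0.52 ± 0.28, 0.18). PSAT1, the second enzyme, measured 110.3, 114 and 100 CPM in the controls, 191, 108 and 111 with sh-A, 344, 262 and 274 with sh-B, and 169, 184 and 173 with sh-C. It rose by 1.44 ± 0.19 with sh-B (adjusted p = 0.00019), the largest called value of the 44 genes in that comparison, and by 0.70 ± 0.19 with sh-C (0.026). PSAT1 with sh-A overlapped the controls (0.34 ± 0.19, 0.21). In the fit of sh-B and control alone, PHGDH was called at the same size (0.52, adjusted p = 0.00083). The direct comparison of sh-A with sh-B gave -1.10 ± 0.19 for PSAT1 (adjusted p = 0.00044) and 0.76 ± 0.28 for PHGDH (0.038). The PHGDH difference was 0.17 (0.09) without sh-A 3, was also lost without sh-B 3 (0.78, 0.076), sh-B 4 (0.74, 0.094) or sh-B 5 (0.76, 0.083), and was 0.61 (0.092) with the replicate number as a block.

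PSPH rose by 0.45 ± 0.09 with sh-A (adjusted p = 0.0033), 0.51 ± 0.09 with sh-B (0.0013) and 0.35 ± 0.09 with sh-C (0.023). SHMT2, which passes a carbon from serine to folate in mitochondria, rose by 0.37 ± 0.09 with sh-A (adjusted p = 0.01) and 0.51 ± 0.09 with sh-C (0.0052), with 0.14 ± 0.09 for sh-B (0.28). Its sh-B level was below that of sh-C, by -0.37 ± 0.09 (adjusted p = 0.01; -0.29 and 0.051 without sh-C 2). MTHFD2, the next mitochondrial folate enzyme, was not called in the main fit, at 0.17 to 0.32. In the edgeR fit of sh-C and control alone, MTHFD2 was called higher (adjusted p at most 0.029). Without control 2 the SHMT2 call with sh-A was lost (0.32, 0.054).

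ALDH1L2, the mitochondrial enzyme that releases formyl-folate as carbon dioxide, measured 9.06, 10.9 and 9.63 CPM in the controls, 44.4, 16.1 and 16.5 with sh-A, 16.7, 17.1 and 17.6 with sh-B, and 8.44, 6.45 and 7.99 with sh-C. Every sh-A and sh-B library lay above the controls and every sh-C library below them. It rose by 1.38 ± 0.32 with sh-A (adjusted p = 0.0073), or 0.73 (0.0007) without sh-A 3. The sh-B and sh-C differences from control were not called in the main fit (0.80 ± 0.32, 0.08, and -0.37 ± 0.33, 0.47). DESeq2 and the edgeR fit of sh-B and control alone called ALDH1L2 higher with sh-B (adjusted p at most 0.038). Sh-B exceeded sh-C by 1.17 ± 0.33 (adjusted p = 0.018), a call lost without sh-C 2 (1.06, 0.076) or sh-C 3 (1.21, 0.05 after rounding). Sh-A exceeded sh-C by 1.76 ± 0.32 (0.0015), or by 1.10 (2.3e-05) without sh-A 3.

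In proline synthesis, PYCR1 measured 44.3, 38.8 and 44.8 CPM in the controls, 66.9, 62.0 and 63.1 with sh-A, 92.5, 92.6 and 92.7 with sh-B, and 48.2, 76.6 and 64.5 with sh-C. The sh-B libraries were the highest and closest together of the 4 groups. It rose by 0.59 ± 0.13 with sh-A (adjusted p = 0.0066), 1.12 ± 0.13 with sh-B (0.0001) and 0.57 ± 0.13 with sh-C (0.015). Sh-B exceeded both sh-C, by 0.55 ± 0.13 (adjusted p = 0.0082), and sh-A, for which sh-A minus sh-B was -0.53 ± 0.13 (0.0051). ALDH18A1 rose by 0.39 ± 0.09, 0.67 ± 0.09 and 0.40 ± 0.09 with sh-A, sh-B and sh-C (adjusted p = 0.0056, 0.00015 and 0.01).

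ASNS, which makes asparagine, measured 79.8, 77.2 and 76.1 CPM in the controls, 174, 83.0 and 90.6 with sh-A, 143, 108 and 120.4 with sh-B, and 107, 123 and 112 with sh-C. All 9 knockdown libraries exceeded the 3 controls. Its log2 fold changes were 0.58 ± 0.22 with sh-A (adjusted p = 0.076), 0.67 ± 0.22 with sh-B (0.039) and 0.55 ± 0.22 with sh-C (0.10), and that of sh-B was called. The sh-A value was 0.16 (0.29) without sh-A 3, and was called without sh-A 4 (0.76, 0.023) or sh-A 5 (0.72, 0.041). Sh-A minus sh-B was -0.09 ± 0.22 (adjusted p = 0.76) but -0.51 (0.0018) without sh-A 3, and sh-B minus sh-C was 0.12 ± 0.22 (0.74).

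CBS and CTH form the route from homocysteine to cysteine. CBS measured 58.9, 54.5 and 61.3 CPM in the controls, 116, 66.2 and 61.3 with sh-A, 95.3, 93.3 and 97.9 with sh-B, and 54.3, 58.6 and 59.8 with sh-C. Only the sh-B libraries were clear of the controls as a group. CBS rose by 0.71 ± 0.19 with sh-B (adjusted p = 0.013) and was higher with sh-B than with sh-C, by 0.73 ± 0.19 (0.012). CTH rose by 0.36 ± 0.12 with sh-B (adjusted p = 0.037). GPT2, a mitochondrial alanine transaminase, and PCK2, the mitochondrial enzyme that makes phosphoenolpyruvate, were not called against control in the main fit. Their highest values were 0.30 ± 0.12 and 0.52 ± 0.19, both with sh-B. In the edgeR fit of sh-B and control alone, both were called higher (adjusted p at most 0.022 and 0.039).

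Several enzyme calls near the threshold rested on single libraries. With sh-B, ASNS was not called without control 1, 2 or 3, sh-B 3 or sh-B 5 (0.55 to 0.69, adjusted p = 0.078 to 0.12), CTH without any 1 of the 6 libraries (0.32 to 0.40, 0.064 to 0.12), and CBS without control 2 (0.66, 0.052). With sh-C, PSAT1 and PSPH were not called without control 1, 2 or 3, sh-C 2 or sh-C 3 (PSAT1 0.64 to 0.73, 0.07 to 0.099, and PSPH 0.29 to 0.38, 0.053 to 0.11), PYCR1 without control 2 (0.50, 0.071), sh-C 2 (0.40, 0.075) or sh-C 3 (0.55, 0.064), and ALDH18A1 without control 3 or sh-C 2 (both 0.37, 0.052).

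**Figure D5:**
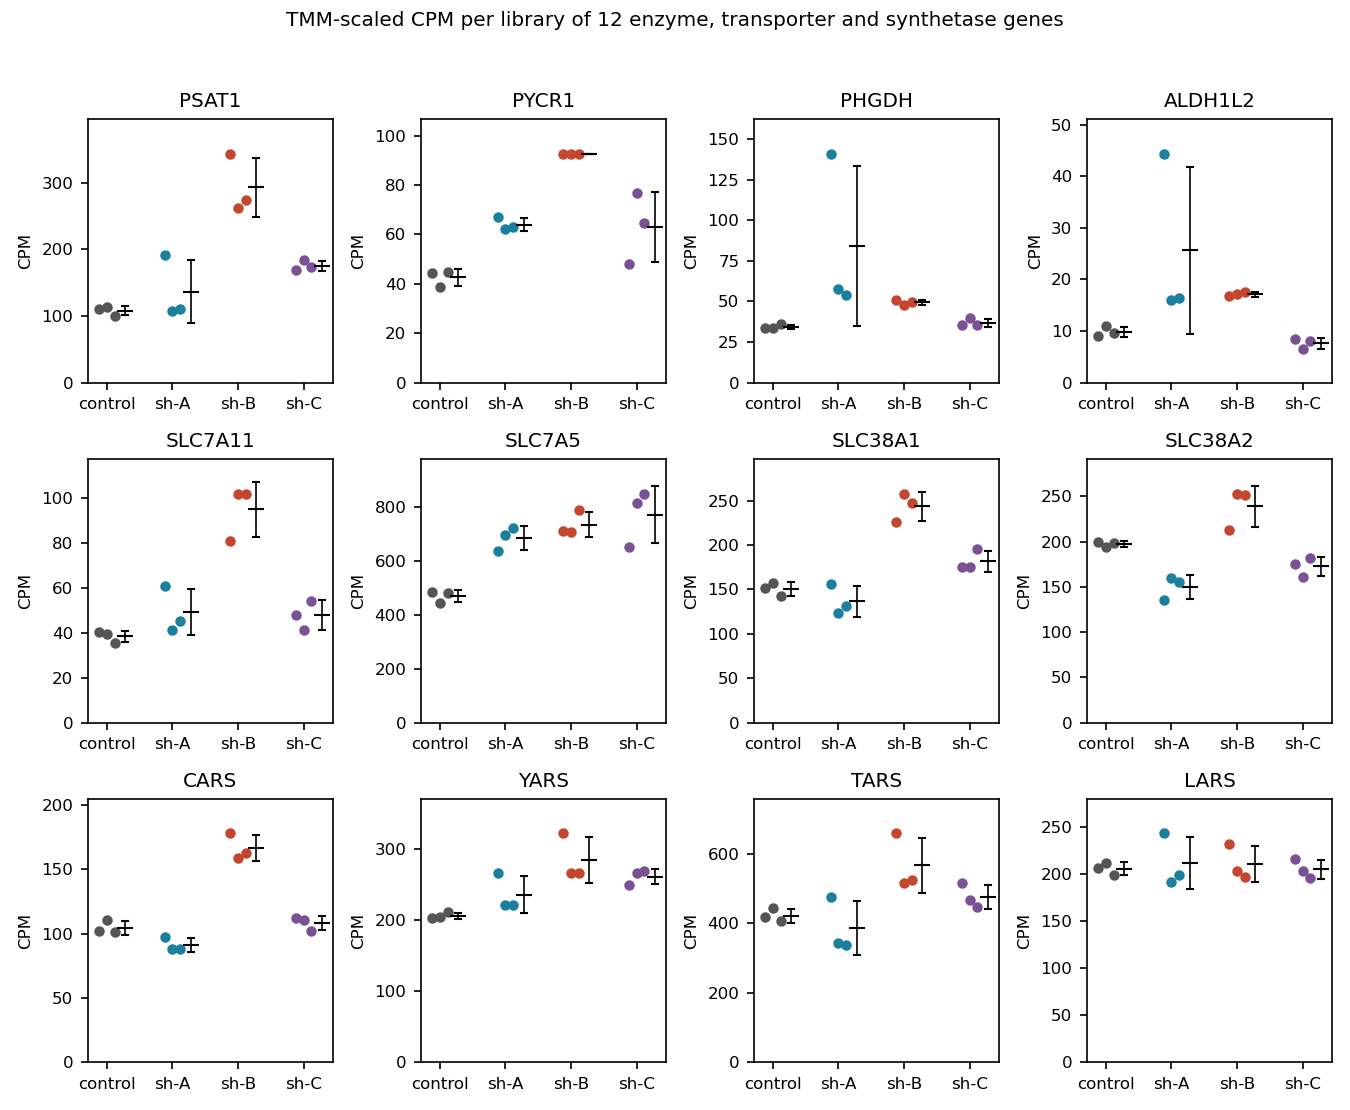
CPM (y axis) of 12 enzyme, transporter and synthetase genes in each library (points), with group mean and SD (bars, n = 3). PHGDH and ALDH1L2 show 1 sh-A library, sh-A 3, at 141 and 44.4 CPM, far above the other sh-A points, while for PYCR1, SLC7A11 and CARS the 3 sh-B points lie above all others.

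The transporters were the role in which the sh-B comparison called every member: 8 of 8 rose, with a median of 0.65. With sh-C 4 of 8 rose and 0 fell by edgeR (also 0 at an unadjusted p under 0.05 and by DESeq2), with a median of 0.35. With sh-A 2 of 8 rose and 1 fell, with a median of 0.28. Of all genes tested, 15.0%, 9.79% and 14.4% were called higher with sh-B, sh-C and sh-A, and 12.3% lower with sh-A. SLC7A5 and SLC3A2, the light and heavy chains of the large neutral amino acid exchanger LAT1, rose with all 3 hairpins.

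SLC7A5 measured 485, 444 and 481 CPM in the controls, 636, 697 and 721 with sh-A, 709.9, 707 and 788 with sh-B, and 650.1, 816 and 850.2 with sh-C. No knockdown library overlapped the controls. It rose by 0.54 ± 0.10 with sh-A (adjusted p = 0.0023), 0.64 ± 0.10 with sh-B (0.00065) and 0.72 ± 0.10 with sh-C (0.0028). SLC3A2 measured 126, 120.4 and 120.5 CPM in the controls, 166, 156 and 157 with sh-A, 203, 170.5 and 182 with sh-B, and 180.4, 226 and 205 with sh-C. It rose by 0.39 ± 0.09, 0.60 ± 0.09 and 0.73 ± 0.09 (adjusted p = 0.0086, 0.00055 and 0.0022), and sh-A was below sh-C by -0.35 ± 0.09 (0.011). These calls against control held without any 1 library.

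SLC7A11, the light chain of the cystine-glutamate exchanger, shares the SLC3A2 heavy chain but followed sh-B. It measured 40.3, 39.4 and 35.6 CPM in the controls, 60.7, 41.4 and 45.4 with sh-A, 80.8, 102 and 102 with sh-B, and 48.1, 41.0 and 54.3 with sh-C. All 9 knockdown libraries exceeded the controls, and the 3 of sh-B exceeded all others. It rose by 1.31 ± 0.15 with sh-B (adjusted p = 8.2e-05), with 0.36 ± 0.15 for sh-A (0.10) and 0.31 ± 0.15 for sh-C (0.17). Sh-B exceeded sh-C by 0.99 ± 0.15 (adjusted p = 0.00048), and sh-A was below sh-B by -0.95 ± 0.15 (0.00025).

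For the sodium-coupled glutamine and neutral amino acid carriers SLC38A1 and SLC38A2, the sh-B libraries lay above those of the other hairpins. SLC38A2 measured 199.6, 194 and 198 CPM in the controls, 135, 160 and 155 with sh-A, 213, 253 and 251 with sh-B, and 175, 161 and 182 with sh-C. The sh-B libraries lay above the controls and those of sh-A and sh-C below. It fell by 0.39 ± 0.09 with sh-A (adjusted p = 0.0073) and rose by 0.28 ± 0.09 with sh-B (0.035), and the sh-C difference of -0.19 ± 0.09 was not called (0.16). SLC38A1 measured 152, 157 and 142 CPM in the controls, 156, 123 and 131 with sh-A, 226, 258 and 247 with sh-B, and 175, 175 and 195 with sh-C. It rose by 0.70 ± 0.10 with sh-B (adjusted p = 0.00026), and sh-B exceeded sh-C by 0.43 ± 0.10 (0.006). Every sh-C library lay above the controls, at 0.27 ± 0.10 (0.071), and sh-A was at -0.13 ± 0.10 (0.34). DESeq2 and the edgeR fit of sh-C and control alone called SLC38A1 higher with sh-C (adjusted p at most 0.042). Sh-A was below sh-C by -0.41 ± 0.10 (0.0064).

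The other 3 carriers rose with sh-B. The cationic amino acid carrier SLC7A1 rose by 0.66 ± 0.11 (adjusted p = 0.00075), the serine and alanine carrier SLC1A4 by 0.77 ± 0.11 (0.00032) and the glutamine carrier SLC1A5, or ASCT2, by 0.50 ± 0.12 (0.0094). With sh-C, SLC7A1 rose by 0.43 ± 0.11 (0.02) and SLC1A4 by 0.35 ± 0.11 (0.047), and SLC1A5 was at 0.35 ± 0.12 (0.073). Leaving out any 1 library but sh-C 1 ended the SLC7A1 call with sh-C (0.33 to 0.46, adjusted p = 0.05 after rounding to 0.099). Leaving out any 1 of the 6 ended that of SLC1A4 (0.29 to 0.44, 0.054 to 0.17), and the SLC38A2 rise with sh-B was lost without control 1, 2 or 3, sh-B 4 or sh-B 5 (0.23 to 0.29, 0.088 to 0.13).

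Of the 12 tRNA synthetases, 7 rose with sh-B, 1 with sh-A (IARS) and 1 with sh-C (YARS), with medians of 0.30, 0.12 and 0.13. Of all genes tested, 15.0%, 14.4% and 9.79% were called higher with sh-B, sh-A and sh-C. In the main fit edgeR called 0 of the 12 synthetases lower in each. At an unadjusted p under 0.05 there was 1 with sh-A and 0 with sh-B and sh-C, and DESeq2 called 0. In the edgeR fit without sh-A 3, CARS (-0.25, adjusted p = 0.033) and TARS (-0.31, 0.047) were called lower with sh-A. Excluding sh-A 3, sh-B 3 and sh-C 1 together gave medians over the 12 synthetases of 0.0, 0.23 and 0.08 with sh-A, sh-B and sh-C. These abundant enzymes join an amino acid to its tRNA, and the differences were smaller than for the transporters, below 0.5 for every synthetase except CARS.

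CARS, which charges cysteine, measured 102, 111 and 101 CPM in the controls, 97.7, 88.3 and 87.8 with sh-A, 178, 159 and 163 with sh-B, and 112, 111 and 102 with sh-C. The sh-B libraries lay above all others and the sh-A libraries below all controls. It rose by 0.67 ± 0.08 with sh-B (adjusted p = 8.6e-05), with -0.20 ± 0.08 for sh-A (0.081) and 0.05 ± 0.08 for sh-C (0.71). Sh-B exceeded sh-C by 0.62 ± 0.08 (adjusted p = 0.00014), and sh-A was below sh-B by -0.87 ± 0.08 (3.6e-06).

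YARS, for tyrosine, measured 203, 204 and 211 CPM in the controls, 266, 221 and 221 with sh-A, 322, 267 and 266 with sh-B, and 249, 266 and 269 with sh-C. All 9 knockdown libraries exceeded the controls. It rose by 0.47 ± 0.10 with sh-B (adjusted p = 0.0033) and 0.35 ± 0.10 with sh-C (0.03), with 0.20 ± 0.10 for sh-A (0.15). IARS, for isoleucine, rose by 0.32 ± 0.08 with sh-A (adjusted p = 0.0082) and 0.30 ± 0.08 with sh-B (0.012), with 0.22 ± 0.08 for sh-C (0.071). TARS, SARS, GARS and WARS, for threonine, serine, glycine and tryptophan, rose with sh-B by 0.42 ± 0.13, 0.39 ± 0.12, 0.37 ± 0.13 and 0.30 ± 0.08 (adjusted p = 0.032, 0.024, 0.042 and 0.012).

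The remaining synthetases were not called against control in the main fit. AARS, for alanine, was at -0.15 ± 0.07 with sh-B and 0.15 ± 0.07 with sh-A, and sh-A exceeded sh-B by 0.30 ± 0.07 (adjusted p = 0.0036). MARS, for methionine, was at 0.29 ± 0.12 with sh-B and 0.26 ± 0.12 with sh-C. In edgeR fits of the 2 compared groups alone, MARS was called higher with sh-B (adjusted p at most 0.048) and with sh-C (at most 0.043). EPRS, LARS and NARS, for glutamate and proline, leucine and asparagine, stayed between -0.01 and 0.23. XPOT, which carries tRNA out of the nucleus, was at 0.10 to 0.16 in the 3 comparisons and was not called. The XPOT libraries ran from 204 to 269.9 CPM.

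Most synthetase calls near the threshold were lost when 1 library was left out. With sh-B, GARS was not called without control 1, 2 or 3, sh-B 3 or sh-B 5 (0.23 to 0.43, adjusted p = 0.056 to 0.15), its lowest value being that without sh-B 3. TARS and SARS were not called without control 1, 2 or 3 or sh-B 3 (TARS 0.30 to 0.46, 0.062 to 0.12, and SARS 0.30 to 0.40, 0.066 to 0.084), and IARS and WARS without control 3 (0.26, 0.061, and 0.25, 0.062). YARS with sh-C was not called without control 1, 2 or 3, sh-C 2 or sh-C 3 (0.32 to 0.36, 0.081 to 0.11). CARS and YARS with sh-B and IARS with sh-A held without any 1 library.

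Compared directly, sh-B exceeded sh-C for 12 of the 44 genes and was lower for 3, where 13.0% of all genes were higher and 14.9% lower. The 12 were 5 enzymes, 4 transporters, 2 effectors and CARS. The 3 that were lower were DDIT3, CEBPB and SHMT2, a count that was 5 without sh-B 3. Between the same groups KAT5 was higher with sh-B than with sh-C, by 0.78 ± 0.10 (adjusted p = 0.00014). Its part in these differences was not tested. MYC, a transcription factor known to raise several of these transporters and enzymes, measured 357, 374 and 343 CPM in the controls, 561, 319 and 289 with sh-A, 914, 526 and 579 with sh-B, and 1219.7, 1276 and 1243 with sh-C. It rose by 0.91 ± 0.24 with sh-B (adjusted p = 0.012) and 1.80 ± 0.24 with sh-C (0.0028), and sh-B was below sh-C by -0.89 ± 0.24 (0.015). The part of MYC in the differences of these genes was not tested. CACGTG, a sequence that MYC and related factors bind, was found on both strands in 7.26% of all windows and 10.9% of the windows of these genes. The 5 members with it were ATF4, ALDH18A1, SLC7A5, SLC1A5 and IARS, and no match overlapped one of TGATGNAA.

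Sh-A was below sh-B for 16 of the 44 genes and above it for 5, where 47.5% of all genes were called, 22.2% lower and 25.3% higher. The 16 included 5 transporters, 4 enzymes and 3 synthetases, and 2 regulators, ATF4 (-0.55 ± 0.20, adjusted p = 0.035) and CEBPG (-0.53 ± 0.18, 0.026). The 5 that were higher were CEBPB, DDIT3, SESN2, PHGDH and AARS. With the replicate number as a block, which same-numbered sh-A and sh-B libraries allowed, 21 were lower and 5 higher. TRIB3 (-0.50, adjusted p = 0.0099), SLC3A2 (-0.21, 0.038), GARS (-0.22, 0.024), MARS (-0.27, 0.014) and SARS (-0.27, 0.016) were then also lower and SHMT2 (0.22, 0.026) higher, while PHGDH was not called. Without sh-A 3 the counts were 25 lower and 3 higher, and ATF4 and CEBPG stood at -0.88 (adjusted p = 6.9e-05) and -0.82 (0.0001). The higher count was also 3 without sh-B 4 or sh-B 5. The ATF4 and CEBPG calls were lost without sh-A 4, sh-A 5 or sh-B 3 (ATF4 -0.42, -0.40 and -0.40, each 0.13, and CEBPG -0.40, -0.42 and -0.39, 0.097 to 0.10).

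Sh-A against sh-C called few genes: 5 lower and 2 higher of the 44, where 17.4% of all genes were lower and 17.9% higher. Lower with sh-A were TRIB3 (-0.75 ± 0.20, adjusted p = 0.012), STC2 (-0.48 ± 0.09, 0.0015), SLC3A2, SLC38A1 (-0.41 ± 0.10, 0.0064) and CARS (-0.25 ± 0.08, 0.027). Higher were PHGDH, by 1.19 ± 0.28 (0.0061), or 0.59 (0.0001) without sh-A 3, and ALDH1L2. Without sh-A 3, 13 genes were lower, and without sh-C 2, 3 were. TRIB3 was not called without sh-C 2 (-0.63, 0.054), nor CARS without sh-A 4, sh-A 5, sh-C 1 or sh-C 2 (-0.22 to -0.24, 0.069 to 0.092). ASNS, at 0.02 ± 0.22 between these groups, was lower with sh-A without sh-A 3, at -0.39 (adjusted p = 0.012).

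The counts for the lists that follow are to be read against the shares of all genes called: 14.4% higher and 12.3% lower with sh-A, 15.0% and 15.0% with sh-B, and 9.79% and 7.16% with sh-C. Upstream of ATF4, the eIF2 kinases, their phosphatase adaptors and the eIF2B exchange factor gave 12 genes, of which 2 were higher and 1 lower with sh-A, 4 and 1 with sh-B, and 3 and 2 with sh-C. With sh-B the eIF2B subunits EIF2B2 (0.67 ± 0.08, adjusted p = 0.00012) and EIF2B5 (0.58 ± 0.08, 0.00026) rose and the kinase EIF2AK2, or PKR, fell by 0.40 ± 0.11 (0.014). With sh-C the values of these 3 genes were 0.38 ± 0.08 (0.012), 0.34 ± 0.08 (0.016) and -0.41 ± 0.11 (0.024). With sh-A the phosphatase adaptor PPP1R15B rose by 0.50 ± 0.07 (adjusted p = 0.00037) and EIF2AK3, or PERK, fell by 0.34 ± 0.07 (0.003).

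Of 15 tested further genes of the ATF4 pathway, 2 were higher and 1 lower with sh-A, 3 and 3 with sh-B, and 2 and 4 with sh-C, with medians of -0.03, 0.0 and -0.09 close to those of all genes. TXNIP, a thioredoxin-binding regulator of glucose uptake, rose by 0.64 ± 0.17 with sh-A (adjusted p = 0.016) and fell by 1.43 ± 0.18 with sh-B (0.00012) and by 0.98 ± 0.17 with sh-C (0.0051). EIF4EBP1, a repressor of cap-dependent translation, rose by 0.46 ± 0.13 with sh-B (0.016) and 0.59 ± 0.13 with sh-C (0.01). The ATF6 and XBP1 arm of the unfolded protein response, which makes chaperones of the endoplasmic reticulum, had 1 higher and 2 lower of 14 with sh-A, 2 and 1 with sh-B, and 2 higher with sh-C. Its chaperone HSP90B1 fell by 0.58 ± 0.16 with sh-A (adjusted p = 0.016) and PDIA4 by 0.64 ± 0.07 with sh-B (7.7e-05). Its medians were -0.03, 0.01 and 0.02 with sh-A, sh-B and sh-C, near those of all genes.

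The 11 cytosolic synthetase and scaffold genes outside the 44 gave 2 higher and 1 lower with sh-A, 3 higher with sh-B, and 4 higher with sh-C. FARSA, a subunit for phenylalanine, rose by 0.33 ± 0.09, 0.34 ± 0.09 and 0.63 ± 0.09 (adjusted p = 0.018, 0.015 and 0.0028). QARS, for glutamine, fell by 0.42 ± 0.06 with sh-A (0.00056) and rose by 0.23 ± 0.06 with sh-B (0.017). The 17 mitochondrial synthetases, which serve the mitochondrial ribosome, had 8 higher and 1 lower with sh-A, 2 and 5 with sh-B, and 6 higher with sh-C. TARS2 rose by 0.44 ± 0.07 with sh-A (adjusted p = 0.00082) and fell by 0.59 ± 0.07 with sh-B (0.00011), while cytosolic TARS rose with sh-B.

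Of 13 tested amino acid transporters outside the 44, 6 were higher and 1 lower with sh-A, 1 and 1 with sh-B, and 1 higher with sh-C. Of the 6, SLC7A8 (15.5, 3.16 and 2.54 CPM in sh-A 3, 4 and 5) and SLC1A3 (8.5, 1.6 and 1.64 CPM) were near 0 in the controls and highest in sh-A 3, as the transcripts seen almost only with sh-A were. SLC7A6, which also pairs with SLC3A2, fell by 0.53 ± 0.07 with sh-A (adjusted p = 0.00025). Among 22 other amino acid and one-carbon enzymes, 7 were higher and 3 lower with sh-A, 4 and 2 with sh-B, and 7 and 1 with sh-C. BCAT1, a branched-chain transaminase, averaged 0.894 CPM in the control and measured 46.0, 13.7 and 13.4 CPM in sh-A 3, 4 and 5 (4.76 ± 0.49, adjusted p = 4.4e-05). With sh-B, GOT1, the cytosolic aspartate transaminase, rose by 0.61 ± 0.08 (adjusted p = 0.00017). With sh-C, TYMS, which makes thymidylate from a folate carbon, rose by 1.06 ± 0.09 (adjusted p = 8.8e-05).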

How the data were processed

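Per the labels, RNA from H1975 cells was selected on oligo(dT) beads and reverse transcribed with random primers; no step named there marks the strand, so a gene and an antisense partner cannot be told apart. Bowtie2, HISAT, RSEM and hg19 are named in the submitters' processing notes, without versions or roles. For each library the authors deposited a table of genes with an expected count and FPKM, and they also gave comparison tables with each gene's log2 ratio, normalised signal means per group and an undefined p-value-like probability, per the file headers. Genes with near-identical copies could share reads in this counting.

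Expected counts, after rounding to integers, were fitted with edgeR 4.0.16 in R 4.3.3: TMM scaling, filterByExpr with a minimum count of 10, 1 mean per group over all 12 libraries, quasi-likelihood tests with 8 residual degrees of freedom, and Benjamini-Hochberg adjustment over 15592 genes, called below 0.05. The common biological coefficient of variation was 0.145. Library totals of 15631504 to 28073366 expected counts set the precision, and the number of libraries limits it further. Standard errors are the log2 fold change over the square root of the test's F. FPKM was used only to order genes within the control.

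Any of the 44 members could be named; from each other list, at most 4 called genes per comparison with the smallest adjusted p, plus KAT5 and MYC. The members and the lists, cell markers included, were chosen with earlier results of these data known. Alternatives were RLE scaling, DESeq2 1.42.0, no filter, a stricter filter (CPM above 1), the 2 compared groups alone, a replicate block and leaving out each library. Deviations from group means across 15592 genes correlated at 0.30, 0.12 and 0.22 between same-numbered sh-A and sh-B libraries 3, 4 and 5. Number 3 of 1 group with number 4 or 5 of the other gave -0.27 to -0.18. The crossed values of numbers 4 and 5 were 0.13 and 0.15, so number 3 stood apart but 4 and 5 could not be matched. The block for these 2 groups therefore rests on the label numbers, and the labels do not state a shared batch. Promoter windows and start sites are from RefSeq on GRCh38.p14; no coordinates are given for the counted genes, whose build is hg19.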

Additional observations from a re-analysis of the deposited data

Results flagged for a closer look

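For 6 genes, all libraries of 1 hairpin lay above the controls and all libraries of another lay below them, with a called direct difference between the hairpins. How many of all genes met this rule was not counted, so it is not shown to be particular to these genes. Of all genes tested, 47.5% were called between sh-A and sh-B, 35.3% between sh-A and sh-C, and 27.9% between sh-B and sh-C. DDIT4 was lower with sh-A than with sh-B, at -0.64 on the log2 scale (edgeR adjusted p = 1.6e-05), and higher with sh-B than with sh-C, at 0.67 (4.5e-05). STC2 was lower with sh-A than with sh-B, at -0.81 (1.6e-05), as was CARS, at -0.87 (3.6e-06). SLC38A2 was lower with sh-A than with sh-B, at -0.67 (8e-05), and higher with sh-B than with sh-C, at 0.47 (0.0024). AARS was higher with sh-A than with sh-B, at 0.30 (0.0036). ALDH1L2 was higher than with sh-C both with sh-A, at 1.76 (0.0015), and with sh-B, at 1.17 (0.018); the first was 1.10 without sh-A 3, and the second was not called without sh-C 2 (1.06, 0.076) or sh-C 3 (1.21, 0.05 after rounding). All 3 hairpins are labelled as knockdown of KAT5.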

How the results depend on the processing

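RLE scaling and the filters moved no count of called members by more than 1. Leaving out 1 library gave 9 to 12 higher and 3 to 6 lower members for sh-A against control, 16 to 23 higher for sh-B (1 lower each time), 3 to 10 higher for sh-C (1 lower each time), 9 to 12 higher and 2 to 5 lower for sh-B against sh-C, 3 to 6 higher and 11 to 25 lower for sh-A against sh-B, and 2 to 3 higher and 3 to 13 lower for sh-A against sh-C. Fitting only the 2 compared groups gave 22 higher members with sh-C in place of 10, 2 lower with sh-B in place of 1, 3 higher for sh-A against sh-B in place of 5, and 2 lower for sh-A against sh-C in place of 5. In these fits 9 members gained a call with sh-B against control, CEBPB as lower and the rest as higher. For sh-A against sh-B, 7 members lost their call. Fewer libraries then share the estimate of spread. Over all genes, 2542 of 14783 were higher with sh-C in that fit, in place of 1527 of 15592. With sh-B 2675 of 14825 were higher, in place of 2344. For sh-A against sh-B 3083 were higher and 2721 lower of 15301, in place of 3947 and 3463. DESeq2 gave 29 higher and 2 lower members with sh-B, in place of 24 and 1. It gave 15 higher with sh-A and with sh-C in place of 10 each. Over all genes DESeq2 called 2603, 2382 and 1875 higher with sh-B, sh-A and sh-C, in place of 2344, 2248 and 1527. With 3 libraries excluded at the same time (sh-A 3, sh-B 3, sh-C 1), chosen after seeing the data, the lower counts were 9 for sh-A, 3 for sh-B, 4 for sh-C, 7 for sh-B against sh-C, 26 for sh-A against sh-B and 22 for sh-A against sh-C, and the higher counts 27 for sh-C and 4 for sh-A against sh-C. Over all 15723 genes of that fit, 3488, 3680, 3189, 3922, 4313 and 4244 were lower in these comparisons, in the same order. In the main fit of 15592 genes the lower counts were 1919, 2344, 1116, 2320, 3463 and 2715. The higher counts over all genes were 3536 for sh-C and 3961 for sh-A against sh-C, in place of 1527 and 2787. ASNS in sh-A against sh-C (0.02) reversed to -0.39 without sh-A 3 (range over single exclusions -0.39 to 0.20) and to -0.44 in that joint exclusion; the cause was not tested.

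Control and sh-C libraries share numbers 1 to 3 but did not deviate together (correlations of -0.06, -0.13 and 0.13), so these share only a number. With that replicate block, 18 members were higher with sh-C in place of 10, and over all genes 1897 in place of 1527. For sh-A against sh-B, the block by number gave 5 higher and 21 lower members, and it changed no member's call beyond those given in the results. For sh-A or sh-B against control or sh-C, no paired analysis was possible because the 2 groups compared share only number 3. Depth limits the lowest genes most: CHAC1, at 1.62 CPM in the control, had a standard error of 0.41.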
